A study of Sus scrofa with 37 samples.

Results

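In Bama minipigs, a small Chinese pig breed, skeletal muscle was compared between 20 h and 12 h after contusion, a blunt injury that crushes fibres without opening the skin. The comparison took the 4 libraries titled as injured at 20 h and the 4 titled as injured at 12 h, 8 of the 37 RNA sequencing libraries of the series, over the 9411 genes that could be tested. Libraries are described by tissue, time and the mechanical damage protocol alone, with no genotype, sex, age or muscle given, and that protocol is also entered for the 9 control libraries. The whole study used 8 minipigs for 7 times, and no label ties a library to an animal. All p-values therefore measure the spread between libraries, which may share animals, and not the spread between animals.

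After a crush injury, the dead parts of muscle fibres are cleared by neutrophils and then macrophages, while satellite cells, the stem cells of muscle, and fibro-adipogenic progenitors, the matrix-forming cells between fibres, leave their resting state. A cell that prepares to divide loads the MCM helicase onto DNA and then copies its genome in S phase, before any mitosis. Intact fibres meanwhile can lower the transcripts of their mitochondria and contractile apparatus and raise those of protein breakdown. Because these are bulk samples, fewer cells of a type and less RNA per cell cannot be told apart.

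Between both times, 614 genes passed an edgeR adjusted p of 0.05. Of the 9411 tested, 245 were higher at 20 h (2.6%) and 369 were lower (3.92%), and 81 of the former and 177 of the latter changed at least 2-fold. Of the genes named by size, the 12 largest rises included 4 genes of the S phase list, the 12 largest falls included 2 enzymes of serine synthesis, and of the gene lists the respiratory chain had the most genes lower. The 4 libraries of one time all lay above the 4 of the other for 597 genes higher at 20 h (6.34%) and 702 lower (7.46%). The 12 largest rises and 12 largest falls described below were named by a rule that asked for this lack of overlap, which is therefore no finding for them. Levels below are counts per M counts after TMM scaling (CPM), listed from replicate 1 to replicate 4, and ± after a log2 fold change is its standard error. A positive log2 fold change means higher at 20 h.

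The 8 libraries were of similar size, with column totals of 10.1 to 12.3 M counts, but they did not form 2 clean groups. NDUFAF8, an assembly factor of respiratory complex I, stood at 21.7, 21.5, 2.27 and 2.18 CPM at 12 h and 1.40, 13.7, 14.5 and 0.645 CPM at 20 h. These values split each time into 2 low and 2 high libraries, a division that no label names and that was entered as a term in the fit. On the first principal component of the 500 most variable genes (56.9% of the variance) the 20 h libraries lay at 4.83, -12.2, -17 and -23.9 and the 12 h libraries at -3.47, 6.61, 19.9 and 25.3. Replicate 1 at 20 h thus lay among the 12 h libraries, and replicate 1 at 12 h beside those of 20 h.

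Within the libraries low in NDUFAF8, 614 genes passed the threshold, a number that happens to equal the one above, with 347 higher and 267 lower (6.52%), and 343 of them were among the 614 of the whole comparison. Within the high libraries 2 rose and 1 fell (0.0319%), with 584 at an unadjusted p below 0.05. Of 95 genes examined singly, only CNN1 and ARHGAP6 passed within the high libraries. All 614 genes called over the whole comparison had the same sign on both sides, which a value averaged over both sides favours, and the change was larger on the low side for 493. Their median absolute log2 change was 1.09 in the low libraries and 0.67 in the high libraries. The difference between both sides passed the edgeR threshold for no gene (0%, with 491 genes at an unadjusted p below 0.05). With column totals in place of TMM, the median over all genes moved by 0.35 on the log2 scale, with 1194 genes called higher and 162 lower. Each direction here is therefore relative to the TMM scale.

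**Figure D1:**
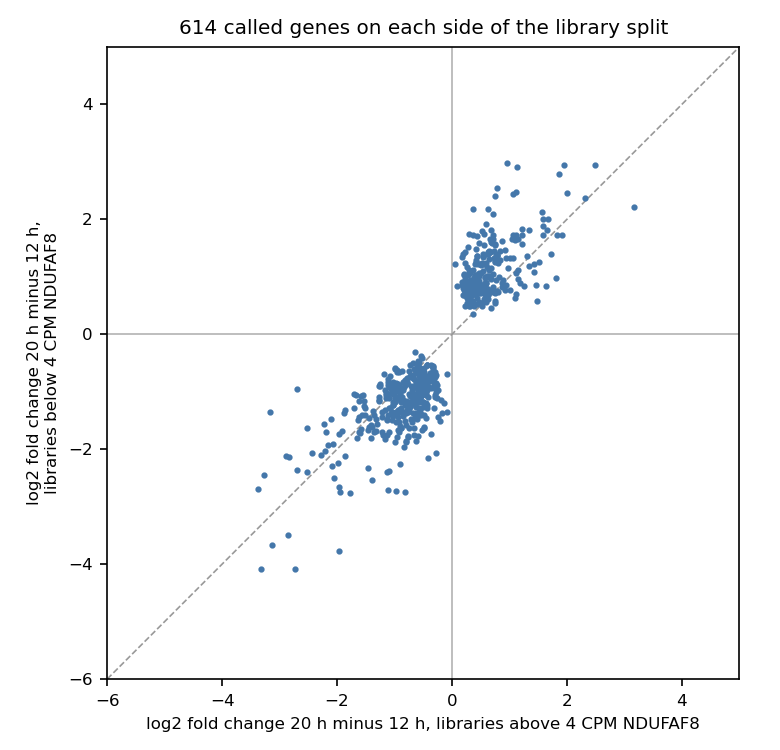
Log2 fold changes (20 h minus 12 h) of the 614 called genes, 1 point per gene, in the libraries above 4 CPM of NDUFAF8 (x axis) and below 4 CPM (y axis), with the line of equal change dashed. All points lie in the lower left and upper right quadrants, and 493 lie farther from 0 on the low side.

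The number of called genes also rested on single libraries. Leaving out 12 h replicate 3 left 52 higher and 96 lower, and leaving out 12 h replicate 4 left 41 and 86. Without 20 h replicate 2, 3 or 4 the counts were 179 and 147, 100 and 90, and 103 and 70. Without 12 h replicate 1 they were 413 and 539, and without 20 h replicate 1 they were 258 and 562. In no alternative did a gene called here take the opposite sign.

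Genes of DNA replication were higher at 20 h. Of 25 tested genes of the S phase list, 6 rose and none fell, where 2.6% of all genes were called higher. For 13 of the 25, all 4 libraries at 20 h lay above all 4 at 12 h (6.34% of all genes). The median log2 change of the list was 0.98 against -0.0011 for all genes. Those called were MCM2, MCM3, MCM4 and MCM7, which are subunits of the ring-shaped helicase that unwinds DNA, MCM10, a firing factor that binds it, and UHRF1, which keeps DNA methylation through replication. MCM5, the sixth subunit of the ring, is not analysed here.

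MCM2 (chromosome 13, 72630378 to 72651270, coordinates in Sscrofa11.1 here and below) stood at 6.44, 2.92, 4.92 and 1.26 CPM at 12 h and 18.3, 14.6, 21.5 and 29.2 CPM at 20 h, a log2 fold change of 2.37 ± 0.56 (edgeR adjusted p = 0.0133). MCM3 (chromosome 7, 46084648 to 46104425) went from 4.88, 3.02, 3.03 and 3.32 CPM to 8.95, 10.4, 13.1 and 18.9 CPM. For MCM3 the log2 fold change was 1.82 ± 0.48 (edgeR adjusted p = 0.0221). MCM4 (chromosome 4, 79674737 to 79686964) was measured at 5.47, 5.65, 7.69 and 3.09 CPM and then at 10.9, 16.0, 19.1 and 26.8 CPM. For MCM4 the log2 fold change was 1.73 ± 0.46 (edgeR adjusted p = 0.0249). For each of the 3 genes, the groups did not overlap, and 20 h replicate 4 was the highest library. UHRF1 (chromosome 2, 73898061 to 73937727) rose from 1.37, 1.85, 2.02 and 2.18 CPM to 6.99, 6.06, 10.1 and 14.8 CPM (2.37 ± 0.68, edgeR adjusted p = 0.0327), again without overlap. The next 3 genes were chosen after their values were seen. MCM10 was rare, with 0.683, 0.487, 0.882 and 0.229 CPM at 12 h and 2.24, 1.55, 2.73 and 5.35 CPM at 20 h (2.28 ± 0.69, edgeR adjusted p = 0.0418). MCM7 changed least, with 29.9, 29.4, 36.7 and 25.8 CPM and then 45.7, 42.7, 48.4 and 54.2 CPM. For MCM7 the log2 fold change was 0.65 ± 0.20 (edgeR adjusted p = 0.0486). MCM6 did not pass, at 31.0, 23.4, 20.5 and 22.9 CPM and 36.9, 44.6, 49.9 and 68.9 CPM (1.02 ± 0.32, edgeR adjusted p = 0.0525), although its groups did not overlap either.

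Genes of cell division did not pass. Of 25 mitosis genes tested, edgeR called none, none had an unadjusted p below 0.05 and neither DESeq2 nor limma-voom called any, 12 had fitted changes above 0 and 13 below, and their median log2 change was -0.09. Their summed level was 36.99 to 58.36 CPM at 12 h and 31.51 to 48.95 CPM at 20 h, against 195.4 to 281.9 CPM and 294.2 to 428.4 CPM for the S phase genes, whose groups did not overlap. The difference between both lists was not tested. PCNA, the sliding clamp of the replication fork and also chosen after its values were seen, did not pass (0.54 ± 0.23, edgeR adjusted p = 0.138). Without 12 h replicate 4 no gene of the S phase list was called, and without 12 h replicate 3, 20 h replicate 3 or 20 h replicate 4 there was 1 each. Calls of single genes were lost without 12 h replicate 1 (MCM7), 12 h replicate 2 (MCM7 and MCM10), 12 h replicate 3 (MCM3, MCM4, MCM7, MCM10 and UHRF1), 12 h replicate 4 (MCM2, MCM3, MCM4, MCM7, MCM10 and UHRF1), 20 h replicate 2 (MCM7, MCM10 and UHRF1), 20 h replicate 3 (MCM3, MCM4, MCM7, MCM10 and UHRF1) and 20 h replicate 4 (MCM3, MCM4, MCM7, MCM10 and UHRF1) (edgeR adjusted p 0.0504 to 0.169). Among other settings the calls ended with no split term (MCM7), 5 library sets as the term (MCM7), the 8 libraries fitted alone with the split term (MCM7 and MCM10), the 8 libraries fitted alone without it (MCM7 and MCM10), the controls left out (MCM7 and MCM10), the replicate number as a block (MCM7) and limma-voom (MCM3, MCM10 and UHRF1).

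**Figure D2:**
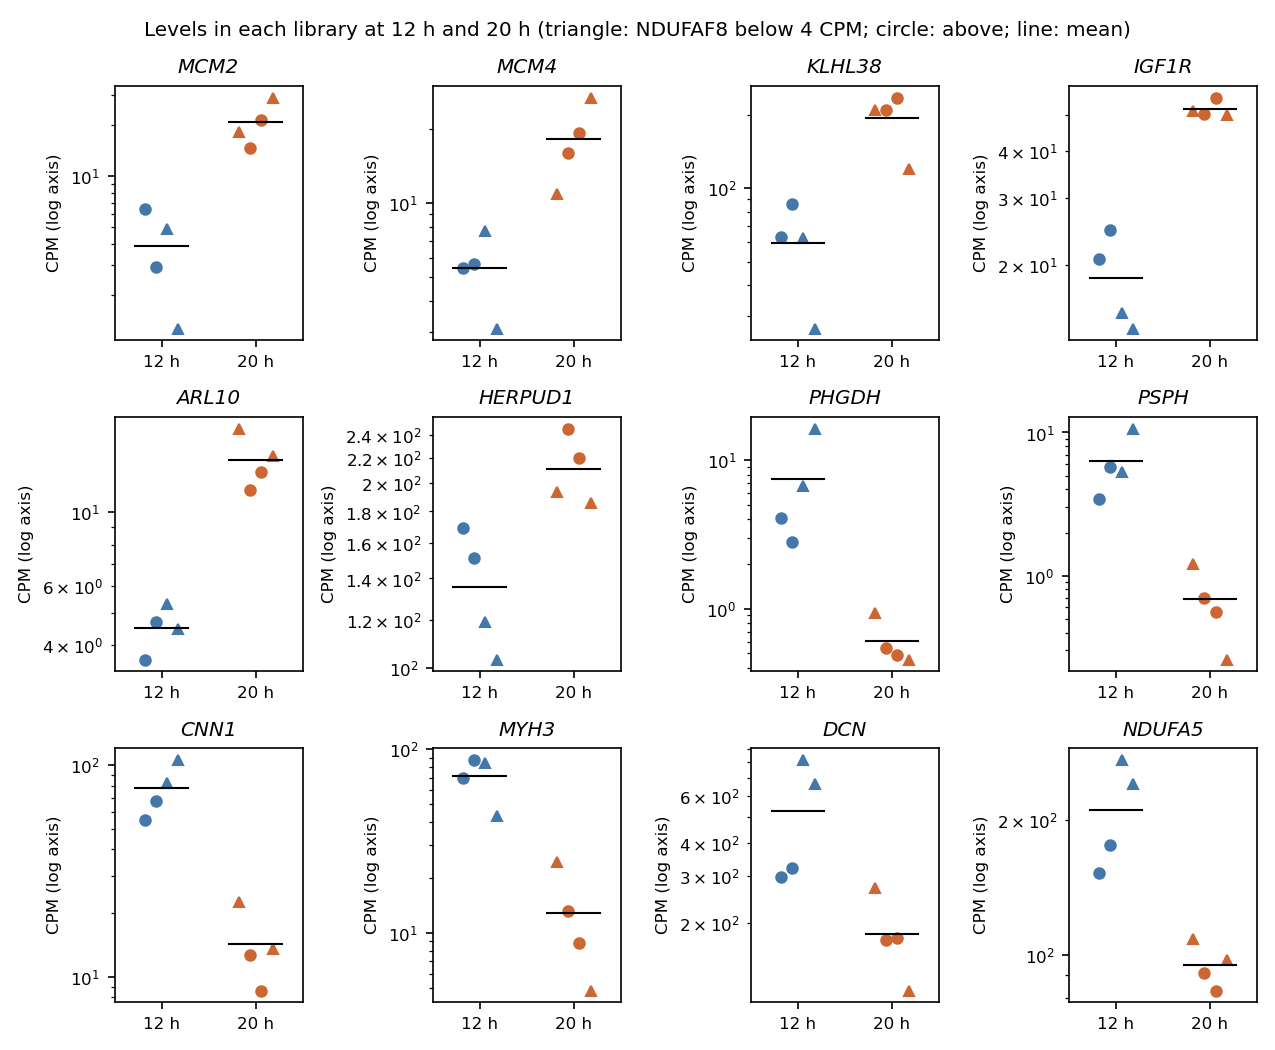
Counts per M counts (CPM) after TMM scaling (log axis) of 12 genes in the 4 libraries at 12 h and the 4 at 20 h, with triangles for libraries below 4 CPM of NDUFAF8, circles for those above, and lines at the group means. The groups do not overlap for any of the 12 genes shown. The naming rule asked for this in MCM2, MCM4, KLHL38, ARL10, PHGDH, PSPH, CNN1 and MYH3, and IGF1R was chosen after its values were seen. PHGDH, at 2.83 to 16.4 CPM at 12 h, is below 1 CPM in all libraries at 20 h.

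The first and the last enzyme of serine synthesis from glucose fell to near the limit of counting, and PSAT1, the enzyme between them, is not analysed here. PHGDH, the first enzyme of that pathway (chromosome 4, 101445977 to 101478144), stood at 4.10, 2.83, 6.68 and 16.4 CPM at 12 h and 0.932, 0.544, 0.489 and 0.451 CPM at 20 h, a log2 fold change of -3.51 ± 0.48 (edgeR adjusted p = 0.000138). PSPH, the last enzyme (chromosome 3, 16877904 to 16903062), went from 3.42, 5.75, 5.29 and 10.6 CPM to 1.21, 0.699, 0.559 and 0.258 CPM. For PSPH the log2 fold change was -3.21 ± 0.48 (edgeR adjusted p = 0.000286). In both genes every library at 20 h lay below every library at 12 h. CHAC1, which degrades glutathione and is a target of the stress factor ATF4 (chromosome 1, 130360510 to 130363332), fell from 3.22, 3.12, 2.14 and 7.67 CPM to 0.466, 0.699, 0.909 and 0.258 CPM (-2.96 ± 0.79, edgeR adjusted p = 0.0241), with no overlap. At 20 h these values rest on 10, 7, 7 and 7 counts for PHGDH, 13, 9, 8 and 4 for PSPH and 5, 9, 13 and 4 for CHAC1, and in the 8 libraries 3 counts amounted to between 0.193 and 0.378 CPM.

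These 3 were the only members of the 22 tested of the ATF4 target and serine list to pass, where 3.92% of all genes were called lower. The median of the list was -0.21, with 8 fitted changes above 0 and 14 below. ATF4 itself, chosen after its values were seen, stood at 1866, 2044, 2378 and 2641 CPM and 2330.5, 1843, 2015 and 1710.3 CPM, with overlapping groups (-0.18 ± 0.28, edgeR adjusted p = 0.726), and its sign turned when column totals set the scale (0.17). ASNS, which makes asparagine and was chosen in the same way, had no overlap at 32.1, 34.3, 37.2 and 50.2 CPM and 27.3, 13.8, 12.6 and 15.4 CPM but did not pass (-1.17 ± 0.52, edgeR adjusted p = 0.158). PHGDH and PSPH kept their calls in all 19 alternatives that use both sides of the split and tested them. Both passed within the low libraries and neither within the high (edgeR adjusted p = 0.188 and 0.189). CHAC1 lost its call without 12 h replicate 4 and without 20 h replicate 2, 3 or 4 (edgeR adjusted p 0.0555 to 0.127), and with limma-voom.

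Transcripts of the mitochondrial respiratory chain were lower at 20 h across all of its complexes. Of 51 nuclear-encoded respiratory genes tested, 24 fell and none rose, where 3.92% of all genes were called lower. For 28, all libraries at 20 h lay below all at 12 h (7.46% of all genes). Fitted changes were below 0 for 50, with a median of -0.94. Complex I, which takes electrons from NADH, had 15 of 24 genes lower (median -0.96). Complex III, which passes them to cytochrome c, had 3 of 5 lower (median -1.14): UQCR10, UQCRFS1 and UQCRQ. Complex II had 1 of 3, complex IV, which reduces oxygen, 2 of 9 (COX7C and COX5A), and complex V, the ATP synthase, 2 of 9 (ATP5PB and ATP5F1C). The medians of complexes II, IV and V were -0.82, -0.84 and -0.94, close to that of complex I, although fewer of their genes passed. In complex V the 9 fitted changes lay between -1.02 and -0.84, and 7 of the 9 genes had no overlap.

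NDUFA5, a subunit of complex I (chromosome 18, 23881872 to 23896699), stood at 152, 176, 273 and 240.4 CPM at 12 h and 108, 90.8, 83.0 and 97.2 CPM at 20 h (-1.14 ± 0.24, edgeR adjusted p = 0.00658). NDUFC2, another subunit (chromosome 9, 12486488 to 12492507), went from 94.5, 85.4, 166 and 171 CPM to 72.0, 48.1, 38.3 and 57.0 CPM. For NDUFC2 the log2 fold change was -1.24 ± 0.28 (edgeR adjusted p = 0.00984). NDUFS4, a subunit of the same complex (chromosome 16, 32874418 to 32985638), fell from 122, 149, 269.5 and 257 CPM to 121, 80.2, 70.7 and 84.7 CPM. For NDUFS4 the log2 fold change was -1.13 ± 0.26 (edgeR adjusted p = 0.011). None of the 3 overlapped between times, although NDUFS4 in the highest library at 20 h came within 1 CPM of the lowest at 12 h, and the 2 low-NDUFAF8 libraries at 12 h were the highest in each. CYCS, cytochrome c, chosen after its values were seen, fell from 412, 403, 569 and 671 CPM to 209, 229, 211 and 283 CPM. For CYCS the log2 fold change was -1.13 ± 0.26 (edgeR adjusted p = 0.011). COX6A1, a subunit of complex IV, was the only one of the 51 with a fitted change above 0 (0.03).

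**Figure D3:**
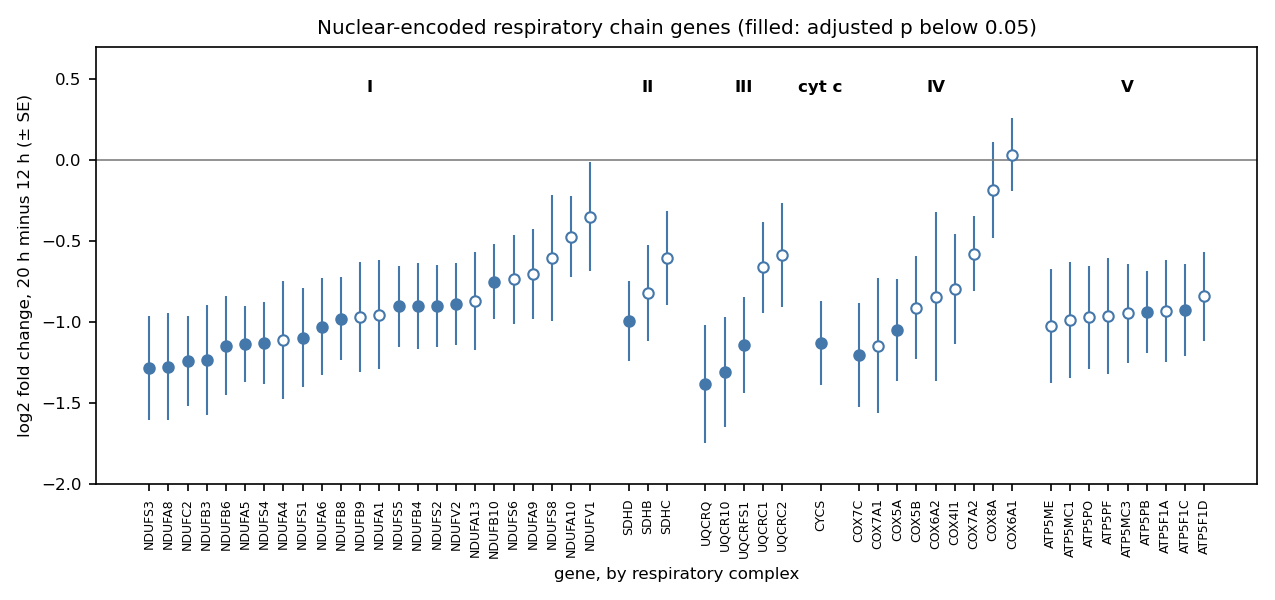
Log2 fold change (20 h minus 12 h) with its standard error for 51 nuclear-encoded respiratory genes, grouped by complex and ordered by size, with filled points for an edgeR adjusted p below 0.05. The 24 filled points lie between -1.38 and -0.75, and 50 of the 51 points lie below 0.

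The 12 tested genes encoded in mitochondrial DNA were all below 0 in their fitted change (median -0.85), and 1 passed. COX2, a catalytic subunit of complex IV encoded there, stood at 8126, 8316, 22431 and 8373 CPM at 12 h and 5234, 5827, 5662 and 4516 CPM at 20 h (-1.14 ± 0.34, edgeR adjusted p = 0.038). The groups did not overlap, and 12 h replicate 3 was far above the other libraries. Summed over the 12 genes, levels were 88270 to 207600 CPM at 12 h and 47450 to 92510 CPM at 20 h. These sums overlapped, with 12 h replicate 3 again the highest. The median of the 12 genes was -1.08 in the low and -0.385 in the high libraries. Of 57 mitochondrial ribosomal proteins, a list made after values were seen, 12 fell and none rose (median -0.40), 5 of 34 in the large and 7 of 23 in the small subunit. Over all genes, 3.92% were called lower.

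Of 24 genes of the tricarboxylic acid cycle and pyruvate entry, 7 fell and none rose (median -0.65), where 3.92% of all genes were called lower. They were DLAT, DLD, SDHD, PDHX, SUCLA2, FH and MDH1, and SDHD also counts among the respiratory chain genes called lower. DLAT, the acetyl-transferring core of pyruvate dehydrogenase (chromosome 9, 39738639 to 39763813), went from 143, 153, 129 and 161 CPM to 92.9, 71.0, 61.3 and 56.0 CPM. For DLAT the log2 fold change was -1.06 ± 0.25 (edgeR adjusted p = 0.0133). DLD, the subunit shared by pyruvate and oxoglutarate dehydrogenase (chromosome 9, 107642129 to 107668443), went from 316, 346, 411 and 447 CPM to 214, 182, 164 and 184 CPM. For DLD the log2 fold change was -1.03 ± 0.24 (edgeR adjusted p = 0.0139). SDHD, a membrane anchor of complex II (chromosome 9, 39790654 to 39803602), stood at 128, 142, 217 and 161 CPM and 91.8, 80.7, 74.9 and 77.8 CPM. For SDHD the log2 fold change was -0.99 ± 0.25 (edgeR adjusted p = 0.0175). None of the 3 overlapped. For the 32 fatty acid genes, the median was -0.62 with 28 below 0, but ETFA, the electron carrier of beta-oxidation, was the only fall (-0.82 ± 0.21, edgeR adjusted p = 0.0187), and SLC27A4, a fatty acid transporter with overlapping groups, rose (0.77 ± 0.24, edgeR adjusted p = 0.0455). Of 22 glycolytic genes edgeR called none and limma-voom none, with 6 at an unadjusted p below 0.05 and 3 called by DESeq2 (median -0.70).

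Markers of muscle fibre types were read beside these genes. All 14 tested fast fibre genes had fitted changes below 0 (median -0.84), 1 passed, and their summed level was 87530 to 164700 CPM at 12 h and 50170 to 118300 CPM at 20 h. For slow fibre genes, 11 of 14 were below 0, none passed by edgeR, DESeq2 or limma-voom, 2 had an unadjusted p below 0.05 (median -0.19), and the sums were 13040 to 31640 CPM and 8458 to 29170 CPM. The part of fibre content in the mitochondrial result was not tested. Without 12 h replicate 3 or 4, 4 respiratory chain genes each were called lower, without 20 h replicate 2, 3 or 4 there were 8, 4 and 3, and without 12 h replicate 1 there were 34. For the tricarboxylic acid cycle no gene was called without 20 h replicate 3 or 4, 1 without 12 h replicate 4 and 3 without 12 h replicate 3. NDUFA5 kept its call in all 20 alternatives that use both sides of the split and within the low libraries, but did not pass within the high (edgeR adjusted p = 0.629). The other named genes of energy metabolism lost theirs without 12 h replicate 3 (COX2, SDHD and SLC27A4), 12 h replicate 4 (CYCS, COX2, DLAT, DLD, ETFA and SLC27A4), 20 h replicate 1 (COX2 and SLC27A4), 20 h replicate 2 (COX2 and SLC27A4), 20 h replicate 3 (COX2, DLAT, DLD, SDHD, ETFA and SLC27A4) and 20 h replicate 4 (NDUFS4, COX2, DLAT, DLD, SDHD, ETFA and SLC27A4) (edgeR adjusted p 0.0519 to 0.293). Further losses came with no split term (SLC27A4), the 8 libraries fitted alone with the split term (COX2, ETFA and SLC27A4), the 8 libraries fitted alone without it (NDUFC2, NDUFS4, COX2, ETFA and SLC27A4), the controls left out (COX2 and SLC27A4), scaling by column totals (COX2 and ETFA) and the replicate number as a block (COX2).

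Single genes of contraction and the cytoskeleton fell, while most tested members of their lists did not pass. CNN1, calponin 1, an actin-binding protein best known from smooth muscle (chromosome 2, 70183370 to 70190756), had the smallest p-value among the genes named here. It stood at 55.3, 67.4, 82.3 and 106 CPM at 12 h and 22.5, 12.7, 8.60 and 13.5 CPM at 20 h, with no overlap, a log2 fold change of -2.45 ± 0.28 (edgeR adjusted p = 3.42e-06) and values of -2.40 in the low and -2.52 in the high libraries. The other 14 tested pericyte and smooth muscle markers did not pass, and the median of the list was 0.0042. ACTA2, smooth muscle actin, chosen after its values were seen, overlapped at 79.8, 133, 90.9 and 43.5 CPM and 90.1, 79.2, 56.3 and 43.0 CPM. For ACTA2 the log2 fold change was -0.36 ± 0.30 (edgeR adjusted p = 0.462). MYL9, a regulatory light chain of smooth muscle and non-muscle myosin chosen in the same way, fell from 31.2, 30.7, 29.4 and 21.4 CPM to 17.3, 11.7, 7.83 and 7.09 CPM without overlap. For MYL9 the log2 fold change was -1.36 ± 0.27 (edgeR adjusted p = 0.00441).

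MYH3, the embryonic myosin heavy chain, went from 69.6, 87.8, 84.6 and 43.5 CPM to 24.4, 13.2, 8.81 and 4.84 CPM with no overlap (-2.52 ± 0.51, edgeR adjusted p = 0.00583); it has near-identical neighbours in the myosin cluster, so its counts are uncertain. Of the 15 satellite cell and myogenic genes it was the only one to pass, and the median was 0.18. MYOD1, the myogenic factor of activated satellite cells, had lower values in all libraries at 20 h, 15.1, 14.1, 19.8 and 17.5 CPM against 36.2, 29.9, 25.5 and 46.8 CPM, and did not pass (-1.07 ± 0.36, edgeR adjusted p = 0.0621). ITGB1BP2, melusin, a muscle protein that binds integrin beta 1 (chromosome X, 57316490 to 57321614), fell from 28.3, 30.1, 65.2 and 51.1 CPM to 10.9, 9.09, 6.08 and 6.45 CPM. For ITGB1BP2 the log2 fold change was -2.41 ± 0.43 (edgeR adjusted p = 0.0022). PVALB, parvalbumin, the calcium buffer of fast fibres (chromosome 5, 10953559 to 10973300), fell from 22.5, 28.6, 43.0 and 27.1 CPM to 5.03, 1.86, 3.01 and 5.74 CPM. For PVALB the log2 fold change was -2.97 ± 0.92 (edgeR adjusted p = 0.0458). Neither gene overlapped between times. HOMER1, a scaffold of calcium signalling chosen after its values were seen, fell from 262, 287, 294 and 359 CPM to 146, 74.7, 65.6 and 50.7 CPM. For HOMER1 the log2 fold change was -1.84 ± 0.30 (edgeR adjusted p = 0.00064).

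Of all genes 3.92% were called lower. Among the 27 sarcomere and Z-disc genes only CAPZB, which caps actin filaments at the Z-disc (chromosome 6, 77780682 to 77912653), passed, with 250.4, 248, 274 and 235 CPM at 12 h and 169, 129, 122 and 169 CPM at 20 h and no overlap (-0.79 ± 0.18, edgeR adjusted p = 0.011). CAV3, the muscle caveolin, was the only one of 15 membrane repair genes to pass (-0.90 ± 0.28, edgeR adjusted p = 0.0473), and STAC3, needed for the coupling of excitation to contraction, the only one of 17 excitability genes (-0.90 ± 0.27, edgeR adjusted p = 0.0385). Both overlapped between times. MYL1, the fast alkali light chain, and GPI, a glycolytic enzyme, did not pass (-1.39 ± 0.47 and -1.13 ± 0.40, edgeR adjusted p = 0.0649 and 0.0807).

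The remaining 6 of the 12 largest falls were genes of transport, metabolism and the cell surface. SLC26A7, an anion exchanger (chromosome 4, 45410795 to 45637500), had the largest of these falls, from 4.98, 4.97, 5.55 and 19.8 CPM to 1.31, 0.855, 0.14 and 0.258 CPM (-3.73 ± 1.00, edgeR adjusted p = 0.0249), the latter on 14, 11, 2 and 4 counts. EXTL1, a glycosyltransferase of heparan sulfate synthesis (chromosome 6, 83461421 to 83476601), went from 17.0, 20.0, 26.8 and 6.18 CPM to 1.21, 2.25, 1.96 and 1.35 CPM. For EXTL1 the log2 fold change was -3.35 ± 0.79 (edgeR adjusted p = 0.0133). GADL1, a decarboxylase that makes beta-alanine (chromosome 13, 16892162 to 17049314), went from 336, 402, 337 and 526 CPM to 132, 44.9, 31.3 and 25.8 CPM. For GADL1 the log2 fold change was -2.81 ± 0.73 (edgeR adjusted p = 0.0221). In all 3 even the nearest libraries of both times were at least 2-fold apart. CA14, a membrane-bound carbonic anhydrase (chromosome 4, 98821577 to 98828934), stood at 88.0, 105, 136 and 169.7 CPM and 61.6, 13.5, 12.5 and 8.77 CPM. For CA14 the log2 fold change was -2.43 ± 0.66 (edgeR adjusted p = 0.025). PPP1R3B, which targets protein phosphatase 1 to glycogen (chromosome 15, 56002383 to 56013477), stood at 98.9, 113, 179 and 219 CPM and 53.9, 32.0, 19.0 and 16.7 CPM. For PPP1R3B the log2 fold change was -2.30 ± 0.54 (edgeR adjusted p = 0.0133). LVRN, an aminopeptidase (chromosome 2, 120117584 to 120193728), stood at 6.74, 6.92, 11.6 and 21.3 CPM and 3.45, 1.79, 2.17 and 1.48 CPM. For LVRN the log2 fold change was -2.32 ± 0.43 (edgeR adjusted p = 0.00369). In these 3 genes 20 h replicate 1 was the highest library of its time.

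CNN1, MYH3, ITGB1BP2, LVRN and HOMER1 passed in all 20 alternatives that use both sides of the split. CNN1 also passed within each side, MYH3 in neither (edgeR adjusted p = 0.0666 in the low and 0.287 in the high libraries), and ITGB1BP2, LVRN and HOMER1 in the low libraries but not in the high (0.385, 0.573 and 0.167, edgeR adjusted p). Other genes of muscle and metabolism lost their calls without 12 h replicate 2 (PVALB, CAV3 and STAC3), 12 h replicate 3 (PVALB, CAV3, STAC3, EXTL1 and CA14), 12 h replicate 4 (PVALB, CAV3, STAC3, SLC26A7, GADL1, CA14 and PPP1R3B), 20 h replicate 1 (PVALB), 20 h replicate 2 (PVALB, CAV3, STAC3, GADL1 and CA14), 20 h replicate 3 (PVALB, CAPZB, CAV3, STAC3, SLC26A7, GADL1, CA14 and PPP1R3B) and 20 h replicate 4 (PVALB, CAV3, STAC3, SLC26A7, EXTL1, GADL1, CA14 and PPP1R3B) (edgeR adjusted p 0.0504 to 0.202). The same held for no split term (CAV3), the 8 libraries fitted alone with the split term (MYL9 and STAC3), the 8 libraries fitted alone without it (MYL9, CAPZB, CAV3, STAC3 and CA14), the controls left out (CAV3), scaling by column totals (CAPZB, CAV3 and STAC3), the replicate number as a block (CAV3) and limma-voom (PVALB and EXTL1).

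Several matrix genes of connective tissue were lower at 20 h. Of 15 tested fibroblast markers, 3 fell and none rose (median -0.76), where 3.92% of all genes were called lower. The summed level of these markers was 4154 to 9352 CPM at 12 h and 2079 to 6850 CPM at 20 h. The part of fibroblast content in the matrix genes was not tested. Small leucine-rich proteoglycans, which coat collagen fibrils, had 5 of 9 tested members lower and none higher (median -1.22), in a list made after values were seen: DCN, LUM, OGN, ASPN and ECM2. These 5 lie in 2 places in the genome, DCN and LUM next to each other on chromosome 5 (91678601 to 91756381 in all) and OGN, ASPN and ECM2 on chromosome 3 (42116521 to 42243746 in all). BGN, FMOD and PRELP, members that did not pass, had log2 changes of 0.30, -0.68 and -1.13.

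DCN, decorin, stood at 298, 319.6, 819 and 664 CPM at 12 h and 270.2, 173, 175 and 111 CPM at 20 h (-1.47 ± 0.35, edgeR adjusted p = 0.0147). LUM, lumican, stood at 52.1, 56.7, 145 and 106 CPM and 44.4, 36.4, 35.9 and 29.7 CPM. For LUM the log2 fold change was -1.22 ± 0.35 (edgeR adjusted p = 0.0343). OGN, osteoglycin, stood at 19.5, 23.4, 76.8 and 50.5 CPM and 13.0, 10.3, 11.5 and 6.38 CPM. For OGN the log2 fold change was -1.92 ± 0.44 (edgeR adjusted p = 0.0117). No library of one time overlapped the other in the 3 genes, and the 2 low-NDUFAF8 libraries at 12 h were the highest in each. MFAP5, a microfibril protein (chromosome 5, 62742520 to 62757522), showed the same order at 20.9, 26.0, 89.9 and 40.1 CPM and 17.0, 9.09, 8.88 and 5.61 CPM. For MFAP5 the log2 fold change was -2.02 ± 0.54 (edgeR adjusted p = 0.0234). SPARC, a collagen-binding protein and the only one of 20 matricellular genes to pass, overlapped (-1.01 ± 0.26, edgeR adjusted p = 0.0207).

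Of the 27 collagens and collagen-processing genes, edgeR called none, with 9 at an unadjusted p below 0.05, 3 called by DESeq2 and 1 by limma-voom (median -0.17). COL3A1, a fibrillar collagen chosen after its values were seen, stood at 1499, 1689, 3669.9 and 2781 CPM and 2408, 958, 944 and 770.4 CPM (-0.90 ± 0.38, edgeR adjusted p = 0.132), and LOX, which cross-links collagen, at 84.1, 63.0, 34.2 and 23.0 CPM and 49.0, 112, 151 and 165 CPM. For LOX the log2 fold change was 1.33 ± 0.47 (edgeR adjusted p = 0.0772). Both groups overlapped in both genes, with fitted changes of opposite sign. FABP4, a fatty acid carrier of adipocytes and capillaries, was the only one of 10 adipocyte markers to pass and overlapped (-1.22 ± 0.34, edgeR adjusted p = 0.0289). Calls in the matrix genes were lost without 12 h replicate 2 (FABP4), 12 h replicate 3 (DCN, LUM, OGN, ASPN, ECM2, MFAP5, SPARC and FABP4), 12 h replicate 4 (DCN, LUM, ASPN, ECM2, MFAP5 and FABP4), 20 h replicate 1 (LUM and ASPN), 20 h replicate 2 (LUM, MFAP5, SPARC and FABP4), 20 h replicate 3 (LUM, ECM2, MFAP5, SPARC and FABP4) and 20 h replicate 4 (DCN, LUM, OGN, ASPN, ECM2, MFAP5, SPARC and FABP4) (edgeR adjusted p 0.05 to 0.147). They also ended with the 8 libraries fitted alone with the split term (DCN, LUM, ASPN, ECM2 and SPARC), the 8 libraries fitted alone without it (DCN, LUM, OGN, ASPN, ECM2, MFAP5, SPARC and FABP4), scaling by column totals (LUM, ASPN, SPARC and FABP4) and limma-voom (ASPN).

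Genes of protein folding and disposal in the endoplasmic reticulum were higher. Of 18 tested genes of the unfolded protein response, 3 rose and none fell, where 2.6% of all genes were called higher. Fitted changes were above 0 for 17, and the median was 0.56. HERPUD1, which helps extract misfolded proteins for degradation (chromosome 6, 18901171 to 18913427), stood at 169, 151, 119 and 103 CPM at 12 h and 194, 246, 220.2 and 186 CPM at 20 h (0.65 ± 0.17, edgeR adjusted p = 0.0206). PDIA4, a disulfide isomerase (chromosome 9, 109260850 to 109280256), stood at 133, 105, 113 and 85.5 CPM and 139, 178, 173 and 252 CPM. For PDIA4 the log2 fold change was 0.77 ± 0.22 (edgeR adjusted p = 0.0331). SEL1L, the adaptor of the degradation ligase (chromosome 7, 104219628 to 104283250), stood at 114, 112, 79.0 and 70.4 CPM and 116, 150.2, 146 and 163 CPM. For SEL1L the log2 fold change was 0.62 ± 0.18 (edgeR adjusted p = 0.0372). The groups did not overlap in any of the 3, but the nearest libraries were within a few CPM in PDIA4 and SEL1L. None of the list was called without 12 h replicate 3, 12 h replicate 4, 20 h replicate 2 or 20 h replicate 4.

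Antigen presentation changed in 2 genes. SLA-DMA and SLA-DMB, neighbours on chromosome 7 that form the chaperone loading peptide onto class II molecules, rose from 14.8, 13.0, 13.2 and 8.93 CPM to 23.5, 21.8, 22.4 and 36.4 CPM and from 14.9, 15.7, 16.5 and 10.4 CPM to 26.8, 21.1, 26.2 and 46.0 CPM. Their log2 fold changes were 1.03 ± 0.26 and 1.03 ± 0.28 (edgeR adjusted p = 0.0196 and 0.0249), the groups did not overlap, and 20 h replicate 4 was the highest in both. The other 4 tested class II genes did not pass, and the median of the 6 was 0.57. Over all genes, 2.6% were called higher. The 34 tested lysosomal genes had 31 fitted changes above 0 and a median of 0.52.

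Macrophage markers were read beside these genes. Of 27, edgeR called none, with 6 at an unadjusted p below 0.05, 2 called by DESeq2 and none by limma-voom, and 24 had fitted changes above 0. The median was 0.66, with 1.66 in the low and 0.17 in the high libraries, and the summed level was 749.3 to 1860 CPM at 12 h and 1454 to 2923 CPM at 20 h. MRC1, the mannose receptor, stood at 12.6, 10.3, 12.5 and 8.70 CPM and 19.4, 23.6, 26.7 and 41.4 CPM (1.32 ± 0.42, edgeR adjusted p = 0.0545), and CSF1R, the receptor for macrophage growth factor, at 49.4, 24.4, 11.3 and 9.39 CPM and 57.0, 57.6, 64.5 and 93.5 CPM. For CSF1R the log2 fold change was 1.61 ± 0.53 (edgeR adjusted p = 0.0587). Neither overlapped. MARCO, a scavenger receptor, overlapped and had no count in 12 h replicate 4 (3.90, 2.73, 1.39 and 0 CPM against 2.89, 6.84, 7.55 and 25.5 CPM, edgeR adjusted p = 0.107), and CD163, chosen after its values were seen, overlapped too (1.29 ± 0.57, edgeR adjusted p = 0.159). The part of macrophage content in the class II and lysosomal genes was not tested.

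The 10 tested neutrophil markers had no call by edgeR, with 1 at an unadjusted p below 0.05, 1 called by DESeq2 and none by limma-voom, and a median of 0.57 that joins 2.30 in the low and -0.58 in the high libraries and sums of 19.12 to 168.4 CPM and 35.24 to 155.2 CPM. NCF4, a subunit of the phagocyte oxidase, had no overlap but did not pass (1.64 ± 0.58, edgeR adjusted p = 0.0802). Of 12 endothelial markers none passed by edgeR, DESeq2 or limma-voom or at an unadjusted p below 0.05 (median 0.05), and only 2 of the lymphocyte list were tested. BANK1, a B cell scaffold protein also found in myeloid cells (chromosome 8, 118814352 to 119114973), was among the 12 largest rises, from 4.59, 2.14, 1.39 and 1.37 CPM to 4.66, 5.83, 8.88 and 16.1 CPM (1.82 ± 0.52, edgeR adjusted p = 0.0318), its groups parted by less than 1 CPM. OTULINL, a relative of the deubiquitinase OTULIN, rose from 6.83, 4.48, 4.41 and 1.03 CPM to 8.58, 11.9, 12.7 and 21.3 CPM without overlap. For OTULINL the log2 fold change was 1.67 ± 0.49 (edgeR adjusted p = 0.0361). Calls of these folding, antigen presentation and immune genes were lost without 12 h replicate 2 (PDIA4, BANK1 and OTULINL), 12 h replicate 3 (HERPUD1, PDIA4, SEL1L, SLA-DMA, SLA-DMB, BANK1 and OTULINL), 12 h replicate 4 (HERPUD1, PDIA4, SEL1L, SLA-DMA, SLA-DMB, BANK1 and OTULINL), 20 h replicate 2 (HERPUD1, PDIA4, SEL1L and OTULINL), 20 h replicate 3 (PDIA4, SEL1L, SLA-DMB, BANK1 and OTULINL) and 20 h replicate 4 (HERPUD1, PDIA4, SEL1L, SLA-DMA, SLA-DMB, BANK1 and OTULINL) (edgeR adjusted p 0.05 to 0.157). They were lost as well with the 8 libraries fitted alone with the split term (HERPUD1, PDIA4, SEL1L, SLA-DMA, SLA-DMB, BANK1 and OTULINL), the 8 libraries fitted alone without it (HERPUD1, PDIA4, SEL1L, SLA-DMA, SLA-DMB, BANK1 and OTULINL), the controls left out (OTULINL) and limma-voom (BANK1).

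**Figure D4:**
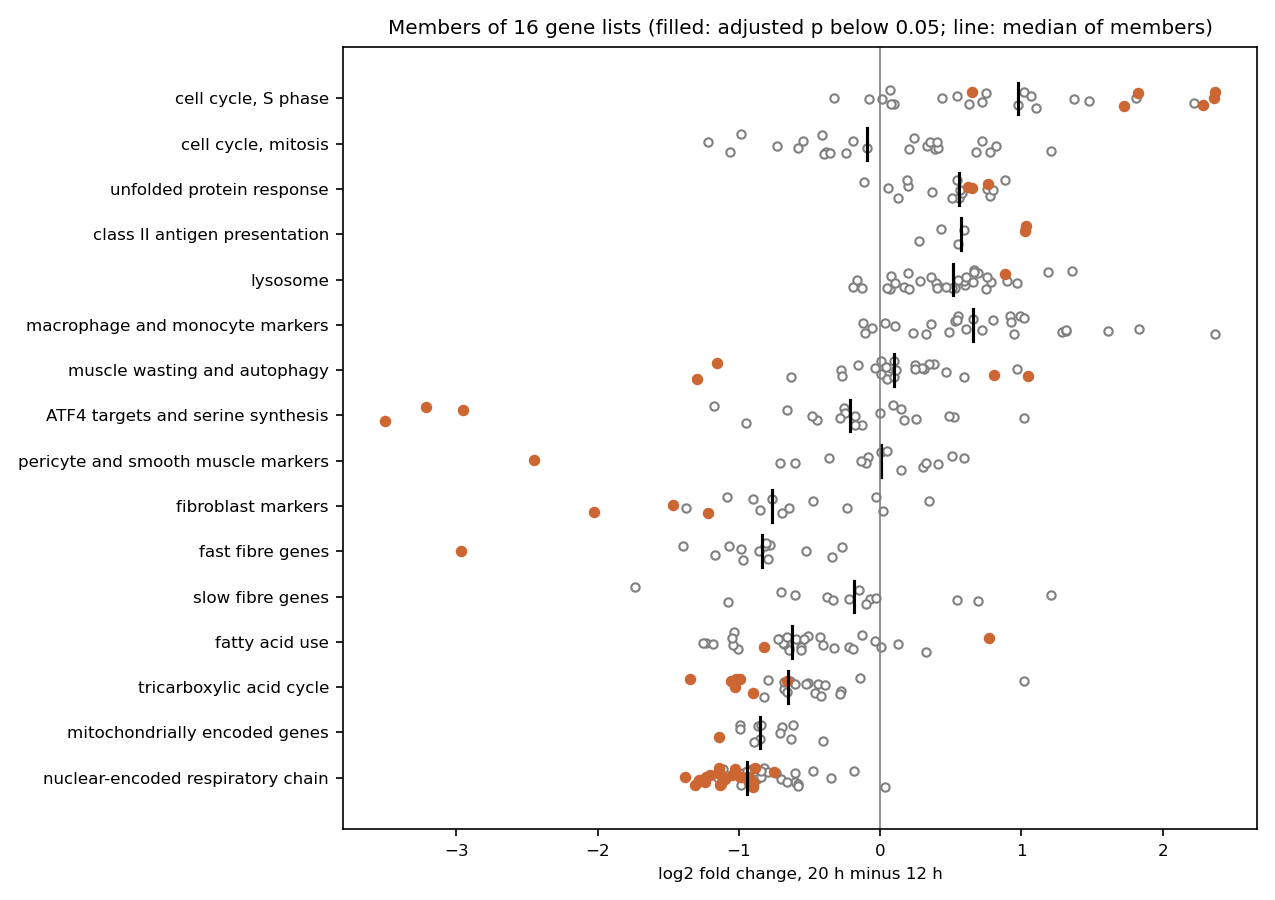
Log2 fold changes (20 h minus 12 h) of the tested members of 16 gene lists, 1 point per gene, with filled points for an edgeR adjusted p below 0.05 and a line at the median of each list. The S phase list has 6 filled points above 0 and the nuclear-encoded respiratory chain 24 below 0, while macrophage and mitosis lists have none.

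Genes of growth control and protein breakdown moved in both directions. KLHL38, a kelch protein of muscle (chromosome 4, 15792997 to 15801473), rose from 63.0, 86.0, 62.6 and 26.5 CPM to 210.2, 209.9, 236 and 119.6 CPM without overlap. For KLHL38 the log2 fold change was 1.72 ± 0.32 (edgeR adjusted p = 0.00386). FBXO32, the muscle ubiquitin ligase atrogin-1 (chromosome 4, 15895875 to 15925929), stood at 1302, 1122, 710.3 and 367 CPM and 1753, 1989, 2119 and 1100.1 CPM. For FBXO32 the log2 fold change was 1.05 ± 0.31 (edgeR adjusted p = 0.0391). SQSTM1, the autophagy receptor p62, chosen after its values were seen, stood at 1882, 2105, 1217 and 955 CPM and 1924, 2759, 3329 and 2465 CPM. For SQSTM1 the log2 fold change was 0.80 ± 0.24 (edgeR adjusted p = 0.0393). FBXO32 and SQSTM1 overlapped between times, with the 2 low-NDUFAF8 libraries at 12 h the lowest of all 8. TRIM55, a sarcomere-bound ligase, fell with overlap (-1.15 ± 0.26, edgeR adjusted p = 0.00944), and MAP1LC3A, a protein of the autophagosome membrane, fell from 139.6, 142, 162 and 125 CPM to 78.7, 65.5, 55.3 and 34.4 CPM without overlap. For MAP1LC3A the log2 fold change was -1.29 ± 0.35 (edgeR adjusted p = 0.0252). TRIM63, the ligase MuRF1, also chosen after its values were seen, did not pass (0.97 ± 0.37, edgeR adjusted p = 0.0978). These 4 calls, 2 in each direction, were all that passed of 26 genes of the wasting and autophagy list (median 0.10). Over all genes, 2.6% were called higher and 3.92% lower.

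IGF1R, the receptor for insulin-like growth factor 1, and ARHGAP6, a GTPase-activating protein, were chosen after their values were seen. IGF1R (chromosome 1, 137383623 to 137691038) rose from 20.7, 24.6, 14.9 and 13.5 CPM to 51.1, 50.3, 55.5 and 49.98 CPM (1.49 ± 0.24, edgeR adjusted p = 0.000499), so that the 4 libraries at 20 h lay within 6 CPM of each other and at least 2-fold above all 4 at 12 h. ARHGAP6 (chromosome X, 7910851 to 8441579) rose from 19.2, 19.7, 16.6 and 15.2 CPM to 29.4, 53.3, 45.9 and 42.8 CPM (1.27 ± 0.18, edgeR adjusted p = 0.000197), also without overlap. TSC22D3, the glucocorticoid-induced leucine zipper, was the only one of 17 glucocorticoid-induced genes to pass, at 187, 263, 255 and 156 CPM and 247, 446, 534 and 419 CPM with overlap (0.91 ± 0.19, edgeR adjusted p = 0.00658).

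Among NF-kB subunits and their feedback genes, a list made after values were seen, 3 of 19 rose and none fell (median 0.28). Over all genes, 2.6% were called higher. TNIP1, which restrains NF-kB signalling, rose from 155, 138, 91.1 and 80.4 CPM to 204, 208, 249 and 222 CPM without overlap. For TNIP1 the log2 fold change was 0.96 ± 0.19 (edgeR adjusted p = 0.00595). NFKB2 and RELB, the subunits of the non-canonical dimer, overlapped and had log2 fold changes of 1.09 ± 0.24 and 1.05 ± 0.30 (edgeR adjusted p = 0.00797 and 0.0314). NFKB2 stood at 42.2, 48.5, 13.9 and 13.2 CPM and 41.4, 62.1, 67.7 and 52.7 CPM, and its change was 1.80 in the low and 0.52 in the high libraries.

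The remaining 5 of the 12 largest rises were genes of varied function. FAM180A, a gene of unknown function and the largest of these rises (chromosome 18, 13574024 to 13589117), went from 1.85, 1.75, 4.03 and 1.72 CPM to 5.69, 11.9, 20.5 and 20.9 CPM. For FAM180A the log2 fold change was 2.76 ± 0.58 (edgeR adjusted p = 0.00658). ARL10, an ARF-like small GTPase (chromosome 2, 81496823 to 81506344), went from 3.61, 4.68, 5.29 and 4.47 CPM to 17.8, 11.7, 13.2 and 14.8 CPM. For ARL10 the log2 fold change was 1.66 ± 0.25 (edgeR adjusted p = 0.000365). PYGO1, a co-activator in Wnt signalling (chromosome 1, 116293361 to 116326753), went from 21.2, 36.2, 21.9 and 26.3 CPM to 76.1, 94.3, 94.9 and 51.8 CPM. For PYGO1 the log2 fold change was 1.58 ± 0.26 (edgeR adjusted p = 0.00064). In all 3 the changes on both sides of the library split were of like size or larger in the high libraries, at 2.22 and 3.16 for FAM180A, 1.74 and 1.58 for ARL10 and 1.40 and 1.72 for PYGO1 in the low and high libraries. RGS8, a regulator of G protein signalling (chromosome 9, 123937721 to 124053927), went from 11.6, 18.1, 3.91 and 2.86 CPM to 23.2, 30.8, 26.8 and 30.2 CPM. For RGS8 the log2 fold change was 1.78 ± 0.53 (edgeR adjusted p = 0.0379). GHDC, a gene of little known function (chromosome 12, 20580937 to 20588662), went from 34.3, 43.6, 15.1 and 11.8 CPM to 57.0, 86.9, 75.8 and 89.4 CPM. For GHDC the log2 fold change was 1.71 ± 0.39 (edgeR adjusted p = 0.011). For RGS8 and GHDC the 2 low-NDUFAF8 libraries at 12 h were the lowest.

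FAM180A, ARL10, PYGO1, IGF1R and ARHGAP6 kept their calls in all 20 alternatives that use both sides of the split. Within the low libraries FAM180A did not pass (edgeR adjusted p = 0.0802), and within the high libraries ARHGAP6 passed (0.0482) but FAM180A, ARL10, PYGO1 and IGF1R did not (0.287, 0.188, 0.109 and 0.218, edgeR adjusted p). Of the growth, NF-kB and other genes, calls ended without 12 h replicate 3 (FBXO32, SQSTM1, MAP1LC3A, NFKB2, RELB, RGS8 and GHDC), 12 h replicate 4 (FBXO32, SQSTM1, TRIM55, MAP1LC3A, NFKB2, RELB, RGS8 and GHDC), 20 h replicate 1 (FBXO32), 20 h replicate 2 (FBXO32, SQSTM1, MAP1LC3A, RELB and RGS8), 20 h replicate 3 (FBXO32, SQSTM1, MAP1LC3A, RELB and RGS8) and 20 h replicate 4 (FBXO32, SQSTM1, TRIM55, MAP1LC3A, RELB and RGS8) (edgeR adjusted p 0.0526 to 0.165). Other settings that ended one were no split term (FBXO32, SQSTM1, NFKB2, RELB and RGS8), the 8 libraries fitted alone with the split term (FBXO32, SQSTM1, TRIM55, TSC22D3, NFKB2 and RGS8), the 8 libraries fitted alone without it (KLHL38, FBXO32, SQSTM1, TRIM55, TSC22D3, TNIP1, NFKB2, RELB, RGS8 and GHDC) and limma-voom (FBXO32).

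Single genes passed in further lists. NQO1, a quinone reductase, fell from 33.5, 35.2, 54.1 and 49.6 CPM to 27.6, 22.6, 21.5 and 18.8 CPM without overlap (-0.92 ± 0.22, edgeR adjusted p = 0.0139), while SOD2, the mitochondrial superoxide dismutase, had overlapping groups at 1020.2, 1139.7, 437 and 446 CPM and 819.8, 1940.5, 2712 and 2119 CPM and a rise of 1.39 ± 0.38 (edgeR adjusted p = 0.0257). MT1A, a metallothionein with near-identical copies, fell with overlap and at few CPM. For MT1A the log2 fold change was -2.51 ± 0.78 (edgeR adjusted p = 0.046). HLF, a clock output factor, fell with overlap (-1.10 ± 0.33, edgeR adjusted p = 0.0409), and ARNTL, the core clock factor BMAL1, did not pass although its groups did not overlap (-1.90 ± 0.69, edgeR adjusted p = 0.0855). ASS1, which makes argininosuccinate, fell narrowly without overlap (-0.94 ± 0.25, edgeR adjusted p = 0.0221), and ARG2, the mitochondrial arginase, did not pass (-2.43 ± 0.83, edgeR adjusted p = 0.0676). LPCAT3, a phospholipid-remodelling enzyme, fell (-0.96 ± 0.28, edgeR adjusted p = 0.0342). KDM3A, a histone demethylase induced by hypoxia, and VARS1, the valyl-tRNA synthetase, rose with overlap (0.53 ± 0.16 and 0.63 ± 0.18, edgeR adjusted p = 0.0404 and 0.0315). VARS1 differed by 1.22 in the low and 0.05 in the high libraries.

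These calls failed without 12 h replicate 1 (MT1A), 12 h replicate 2 (MT1A, ASS1, LPCAT3 and KDM3A), 12 h replicate 3 (NQO1, SOD2, MT1A, HLF, ASS1, KDM3A and VARS1), 12 h replicate 4 (NQO1, SOD2, MT1A, HLF, ASS1, LPCAT3, KDM3A and VARS1), 20 h replicate 1 (MT1A and VARS1), 20 h replicate 2 (MT1A, HLF, ASS1, LPCAT3 and KDM3A), 20 h replicate 3 (NQO1, SOD2, MT1A, HLF, ASS1, LPCAT3 and KDM3A) and 20 h replicate 4 (NQO1, SOD2, MT1A, HLF, ASS1, LPCAT3, KDM3A and VARS1) (edgeR adjusted p 0.0507 to 0.25). They failed too with no split term (VARS1), the 8 libraries fitted alone with the split term (SOD2, MT1A, HLF, ASS1, LPCAT3, KDM3A and VARS1), the 8 libraries fitted alone without it (NQO1, SOD2, MT1A, HLF, ASS1, LPCAT3, KDM3A and VARS1), the controls left out (MT1A and HLF), scaling by column totals (NQO1, MT1A, ASS1 and LPCAT3) and the replicate number as a block (MT1A and HLF).

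Outside the NF-kB genes above, the lists of chemokines and cytokines, immediate early, interferon response and complement genes had no edgeR call between both times. Of 19 chemokines and cytokines none passed, with 2 at an unadjusted p below 0.05, 1 called by DESeq2 and none by limma-voom (median -0.49). The 25 immediate early genes (-0.10) and 19 interferon response genes (-0.04) had none by any of the 3 tools or at an unadjusted p below 0.05. Among 11 complement genes none passed by any tool, with 2 at an unadjusted p below 0.05 (0.67). Neither IL33, an alarmin of stromal cells (1.06 ± 0.36, edgeR adjusted p = 0.0702), nor VEGFA, the angiogenic factor (-1.23 ± 0.45, edgeR adjusted p = 0.0859), passed. In protein synthesis and quality control, 45 cytosolic ribosomal proteins (median -0.13), 33 ribosome biogenesis factors (0.26), 30 proteasome subunits (0.0076) and 19 heat shock genes (-0.09) were without edgeR or limma-voom calls. At an unadjusted p below 0.05 these lists had 1, 7, 1 and 3 genes, and DESeq2 called 3 of the heat shock genes and none of the rest. An adjusted p above 0.05 does not show that levels were equal.

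Set against the control libraries, the 2 times lay on different sides of the control level for some genes and on the same side for others. Both comparisons share the 9 controls, none of which is low in NDUFAF8. For MCM2 the log2 changes against control were 0.43 ± 0.51 at 12 h and 2.80 ± 0.47 at 20 h (edgeR adjusted p = 0.554 and 2.19e-05). KLHL38 had 0.16 ± 0.29 and 1.88 ± 0.28 (0.709 and 3.92e-06, edgeR adjusted p), and IGF1R had -0.09 ± 0.21 and 1.40 ± 0.20 (0.776 and 3.70e-06, edgeR adjusted p). In these 3 genes the 20 h value passed and the 12 h value did not. CNN1 likewise had 0.23 ± 0.24 and -2.22 ± 0.28 (0.509 and 3.75e-07, edgeR adjusted p). PHGDH was above control at 12 h and below it at 20 h, with 1.21 ± 0.41 and -2.29 ± 0.47 (0.0269 and 0.000215, edgeR adjusted p), as was MYH3 with 1.33 ± 0.41 and -1.19 ± 0.48 (0.0164 and 0.0383, edgeR adjusted p). NQO1 passed above control at 12 h and not at 20 h, with 1.17 ± 0.20 and 0.25 ± 0.20 (0.000112 and 0.308, edgeR adjusted p), but scaling by column totals it passed at 20 h too (0.642, edgeR adjusted p = 0.00826). CAPZB likewise passed at 12 h and not at 20 h, with 0.64 ± 0.16 and -0.15 ± 0.17 (0.00424 and 0.476, edgeR adjusted p). RGS8 was above control at both times, with 3.92 ± 0.50 and 5.70 ± 0.51 (1.92e-06 and 1.84e-09, edgeR adjusted p), and NDUFA5 below at both, by this fit, with -0.59 ± 0.23 and -1.73 ± 0.24 (0.0485 and 1.51e-06, edgeR adjusted p). The 12 h call of NDUFA5 was lost without 12 h replicate 1, 2 or 4, without 20 h replicate 1, 2 or 3, without the split term and with the block, at edgeR adjusted p up to 0.265. PHGDH lost its 12 h call without 12 h replicate 1 (0.0545) or 4 (0.107), and MYH3 its 12 h call without 12 h replicate 1 (0.07) or 2 (0.124) and its 20 h call without 20 h replicate 2, 3 or 4 (0.0643, 0.13 and 0.102), by column totals, the block and 5 library sets, all by edgeR.

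Levels at the times around the pair were read without a test. The 5 library sets divide the libraries by NDUFAF8, C1QBP, ND6 and column total. No library at 8, 16 or 48 h shares a set with one at 12 or 20 h, and most at 24 h do not either. Time and library set therefore cannot be told apart in what follows. MCM2 had a median of 16.6 CPM at 16 h and 28.1 CPM at 24 h, so its lowest library at 16 h (10.0 CPM) was already above the highest at 12 h. CNN1 had a median of 24.0 CPM at 16 h, its highest library there (27.1 CPM) already below the lowest at 12 h, and 23.2 and 18.9 CPM at 24 and 48 h. At 8 h CNN1 had stood at 28.0 to 43.1 CPM, also below all libraries at 12 h. IGF1R stood between both times at 16 h, with 30.2 to 37.6 CPM, and returned to 17.2 to 28.2 CPM at 48 h. ARL10 differed from these in that it was still at 3.05 to 4.47 CPM at 16 h, stayed high at 15.3 to 18.6 CPM at 24 h and was back at 4.58 to 5.79 CPM at 48 h, against 3.91 to 11.4 CPM in the controls. HERPUD1 at 16 h (112 to 135 CPM) lay within the range of 12 h, and all libraries at 24 and 48 h were below those of 20 h.

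The medians of PHGDH and NDUFA5 did not move steadily before 12 h, and neither did the levels of some other genes lower at 20 h. PHGDH had a median of 2.50 CPM in the controls, 7.87 CPM at 4 h and 0.654 CPM at 8 h, then 5.39 CPM at 12 h and 0.517 CPM at 20 h. NDUFA5 had medians of 109 CPM at 8 h, 208 CPM at 12 h, 99.0 CPM at 16 h and 94.0 CPM at 20 h. The 12 h libraries thus lay above those of 8 h in both genes at the median. For ITGB1BP2 and MYH3 all libraries at 8 h (12.1 to 22.7 and 13.6 to 24.5 CPM) lay below all at 12 h. LVRN and MAP1LC3A went the other way, with medians of 13.5 and 183 CPM at 8 h and 9.26 and 141 CPM at 12 h. All libraries at 8 h and 16 h are high in NDUFAF8. None of them shares a library set with a 12 h library, so keeping the high libraries alone does not part time from set. Among the high libraries alone, PHGDH stood at 4.10 and 2.83 CPM at 12 h, 0.347 to 1.45 CPM at 8 h and 1.06 to 1.72 CPM at 16 h. NDUFA5 stood at 152 and 176 CPM at 12 h in these libraries and 85.2 to 109.6 CPM at 16 h, while at 8 h it spanned 98.1 to 201 CPM and overlapped with 12 h. The value of 201 CPM was that of 8 h replicate 4, which lies in another library set than the rest of 8 h. DCN had medians of 674 CPM in the controls, 749 CPM at 4 h, 264 CPM at 8 h and 492 CPM at 12 h. Its medians were then 350 CPM at 16 h, 174 CPM at 20 h, 271 CPM at 24 h and 472 CPM at 48 h. In the high libraries at 12 h DCN (298 and 320 CPM) lay within its ranges at 8 h (150 to 407 CPM) and 16 h (293 to 400 CPM).

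**Figure D5:**
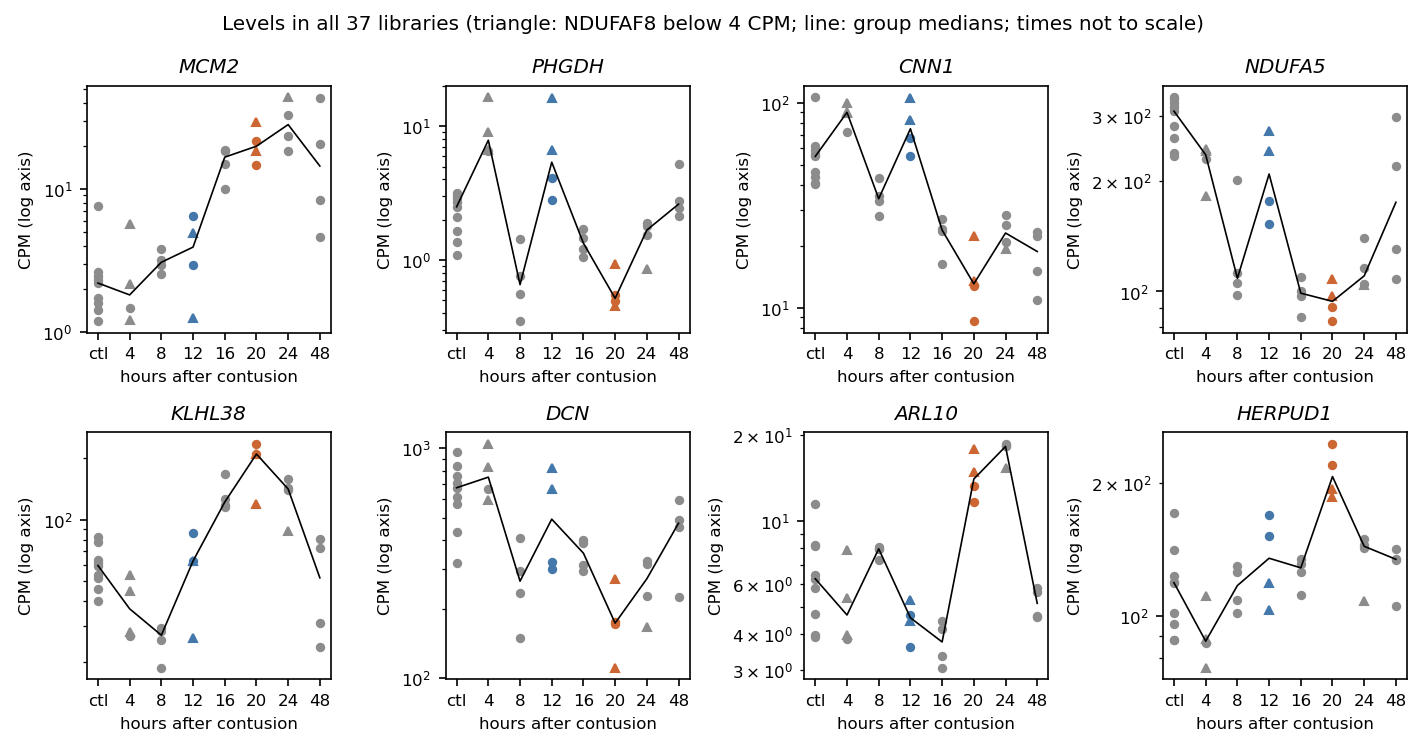
Counts per M counts (CPM) after TMM scaling (log axis) of 8 genes in all 37 libraries, by control (ctl) or hours after contusion, with 12 h in blue, 20 h in orange, triangles for libraries below 4 CPM of NDUFAF8 and a line through the group medians. At 16 h MCM2 lies above and CNN1 below its range at 12 h, while ARL10 and HERPUD1 lie within or below theirs. The 16 h libraries share no library set with those of 12 h or 20 h.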

How the data were processed

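Trizol RNA of frozen muscle was made into NEBNext Ultra libraries and sequenced as 150 bp pairs (HiSeq-2500), per the labels' protocols. The submitters' processing notes list HISAT2 2.2.1, HTSeq, Trimmomatic, FastQC, MultiQC and Sscrofa11.1. They give no annotation release and no strand setting, so overlapping antisense genes cannot be told apart. The authors deposited raw counts per gene symbol, 9418 rows by 37 columns. The lowest row maximum is 101 and the rule for leaving out rows is unknown here, so column totals are not the sequencing depth. Floors of 3 counts cover counting error only. No 2 libraries of a time agreed within sampling noise.

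TMM scaling, filterByExpr (9411 genes left) and a robust quasi-likelihood fit were run in edgeR 4.0.16 with limma 3.58.1 under R 4.3.3. The fit held all 37 libraries, with time and the NDUFAF8 split (at 4 CPM) as terms. Within-split and interaction tests used a fit of time-by-split groups. Adjusted p-values are Benjamini-Hochberg values over the whole table. Alternatives were other terms, libraries, scalings and filters, limma-voom, DESeq2 1.42.0, a replicate block and leaving out each library.

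The comparison, the split and 50 gene lists were chosen with earlier results of these data known. A rule named the 12 largest rises and 12 largest falls called with at least 5 CPM and no overlap, for every list the 3 genes of lowest p, and NDUFAF8. Gene spans came from a RefSeq table of Sscrofa11.1 that held 8945 of the 9411 symbols. The result of 1 gene of the lysosomal list that the rule names is not reported here.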

Additional observations from a re-analysis of the deposited data

Results flagged for a closer look

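Among 95 genes examined, 190 groups of 4 libraries were checked for 1 library far from the other 3, with a gap above Dixon's critical value for 4 samples, and 13 were found. Chance alone gives about 1 in 20 such groups, so these are given as values with no cause tested.

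At 12 h, COX2 stood at 22431 CPM in replicate 3, with the others at 8126 to 8373 CPM, and FAM180A at 4.03 CPM in the same library, with the others at 1.72 to 1.85 CPM. SLC26A7 stood at 19.8 CPM in replicate 4 against at most 5.55 CPM, ARG2 at 23.5 CPM in the same library against at most 7.91 CPM, and MCM3 at 4.88 CPM in replicate 1 against at most 3.32 CPM.

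At 20 h, 7 of 8 such values were in replicate 1 and were the highest of their time. CA14 stood at 61.6 CPM there against at most 13.5 CPM, MYL1 at 9829 CPM against at most 5498 CPM, and GPI at 2596 CPM against at most 1049 CPM. COL3A1 stood at 2408 CPM against at most 958 CPM, SPARC at 777 CPM against at most 436 CPM, ASS1 at 5.22 CPM against at most 3.28 CPM, and ARNTL at 5.13 CPM against at most 4.43 CPM. SLA-DMA stood at 36.4 CPM in replicate 4 against at most 23.5 CPM. In MYL1, GPI, COL3A1, SPARC and CA14, the value of 20 h replicate 1 was thus nearer to the 12 h libraries than those of its own time were.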

How the results depend on the processing

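The counts of 245 genes higher and 369 lower moved by more than 1.5 times under these settings. The 8 libraries alone gave 42 and 164 with the split term and 23 and 67 without it, the high-NDUFAF8 libraries 2 and 1, column totals 1194 and 162 (403 shared, 88.1% of calls higher against 39.9%), and DESeq2 426 and 592. Leaving out 1 library gave 41 to 413 higher and 70 to 562 lower. The other settings stayed within 1.5 times, from 211 to 347 higher and 267 to 462 lower. The time by split difference had 0 calls by edgeR in all 37 and in the 8 libraries alone (491 and 403 at an unadjusted p below 0.05). For the 95 genes examined, 1553 of the gene and setting pairs kept direction and side of the threshold, 466 lost the call, 63 gained one and 1 turned, ATF4 with column totals (0.17, adjusted p = 0.612 by edgeR). Of the changes against control, 388 pairs stayed, 18 lost the call, 4 gained it and 6 turned, none of them past the threshold. These were KLHL38 at 12 h without the split term (-0.000557), CAPZB at 20 h by column totals (0.25), CNN1 at 12 h with the replicate block (-0.0266) and, with single libraries left out, MCM2 (-0.165 to 0.687), KLHL38 (-0.0787 to 0.318) and IGF1R (-0.327 to 0.00806), all at 12 h. With the replicate number as a block, 310 were higher and 462 lower, 565 of them shared with the main calls. Deviations from the time means correlated at -0.43, 0.26, -0.099 and -0.0076 between same-numbered libraries. The split was not taken out of these deviations, so they cannot tell whether same-numbered libraries share an animal. The causes of the moved counts were not tested. At 10.1 to 12.3 M counts a library, genes at a few CPM rest on few counts, and 4 libraries a time limit the rest.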
